A study of Mus musculus with 4 samples.

Results

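Transcripts of the B lineage were examined in gonadal white adipose tissue (gWAT): the antigen receptor and its co-receptors, the kinases and adaptors behind it, the transcription regulators that set B cell and plasma cell identity, the genes of antibody secretion, and the immunoglobulin chains themselves. A row of the expression table was included if its symbol was 1 of 30 named genes, if its symbol began with Igh, Igk or Igl, or if it had no symbol and its protein match was described as an immunoglobulin kappa, heavy or light chain. The rule took in 36 of 17335 rows: all 30 named genes, 4 unnamed immunoglobulin light chain rows, and Iglon5 and Ighmbp2, which are not immunoglobulin genes and entered through the first letters of their symbols alone. Another 20 unnamed rows, described in other words as immunoglobulin chains, fell outside the rule and are given separately.

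RNA-Seq had been performed on gWAT of female mice after 18 weeks of a high-fat diet (HFD, 60% of calories from fat). The fl/fl group carried a Dnmt1 gene with loxP sites around exons 4 and 5 and no reported Cre. The AD1KO group were their littermates with the same floxed gene and a Cre recombinase under the adiponectin promoter, which is active in adipocytes, so that DNA methyltransferase 1 was deleted there and not by design in lymphocytes. RNA of 4 animals per group had been pooled into 1 library, so no value below carries a measure of the spread between animals, and no test between the genotypes was possible. The age of these animals at the start of the diet is not given in the sources used here.

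B cells recognise antigen through a membrane immunoglobulin that signals through the paired chains CD79A and CD79B, while co-receptors such as CD22, CD72 and SIGLECG restrain the signal and CR2 lowers its threshold. Once activated, a B cell can become a plasma cell: PRDM1 shuts off the B cell program that PAX5 maintains, surface receptors are lost, and immunoglobulin heavy chain, light chain and the joining chain fill the secretory pathway. In obese adipose tissue, B cells and IgG are known to accumulate alongside T cells and macrophages.

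The regulators among these genes act on short DNA motifs, so the promoters of the named genes were searched for the octamer ATGCAAAT (ATTTGCAT on the other strand), to which OCT1 and OCT2 bind with their coactivator POU2AF1, and for the core GAGGAAGT (ACTTCCTC), one form of the site of PU.1 and SPIB. RefSeq promoters (GRCm38.p6, 250 bases before to 50 after the start) were found for 23 of the 30 genes, in 27 windows. Each motif occurred in 2 of the 27 windows, or 7.41%; the octamer occurred in 1.74% and the PU.1 and SPIB core in 3.2% of all 32851 promoters. The matches lay in 4 different promoters, so none overlapped another, and a match describes the letters only, not a site in use. They are shown 5′ to 3′ on the strand of the gene with the motif in capitals, because POU2AF1 and SPIB are themselves among the genes measured. The Vpreb3 window is chr10:75948244-75948273 (plus strand), with the first base of the motif 45 bases before the start, and the Blnk window is chr19:40994333-40994362 (minus strand), with the motif beginning 130 bases before it. The Cd72 window is chr4:43454657-43454686 (minus strand), with the motif beginning 49 bases before the start, and the Cd37 window is chr7:45238846-45238875 (minus strand), with the motif beginning 25 bases before it.
Vpreb3, octamer: tcagtgggctgATTTGCATgctctattgtg
Blnk, octamer: tactggaagggATTTGCATgcccaataagg
Cd72, PU.1 and SPIB core: gccaaagacctACTTCCTCttttatgactt
Cd37, PU.1 and SPIB core: acccccccggaACTTCCTCtttctctgccg

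Expression was taken as FPKM, fragments per kilobase of transcript, scaled to library size, a unit inferred from the values. This unit allows levels of different genes to be compared per length. Differences are log2 ratios of AD1KO over fl/fl FPKM after adding 0.01, and a gene is called lower at -0.5 or below and higher at 0.5 or above, the fold used in the study's methods. Among the 15839 genes that reached 0.1 FPKM in either library, 19.1% were lower and 14.3% were higher, and the median ratio was -0.04. The read numbers behind the FPKM values were recovered from the steps between low values, which came to 17803433 for the fl/fl and 17551359 for the AD1KO library. Intervals in parentheses after a ratio are exact 95% counting intervals on those reads, and they cover counting error only. As a check of the labels, Dnmt1 measured 6.99 FPKM in fl/fl against 3.33 in AD1KO, for a log2 ratio of -1.07 (-1.27 to -0.87). This value counts reads of the whole gene in the whole tissue, not of the deleted exons in adipocytes.

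B lineage transcripts were mostly less abundant in AD1KO gWAT. Of the 30 named genes, 23 were lower, none was higher and 7 lay between the limits, beside the 19.1% of all tested genes that were lower. All 30 ratios were under 0, as were 53.8% of all tested genes, with a median of -0.72 and a range from -2.10 to -0.03. The largest differences were in Cd72, Cd180, Mzb1 and Jchain, and the smallest in Ms4a1 and Cxcr5. Both latter signs turned positive under at least 1 other scaling of the libraries. The counting interval lay wholly below 0 for 25 of the 30 (29.0% of all tested genes) and wholly at or below -0.5 for 13 (8.28%), and 9 had a ratio of -1 or below (8.95%). None of the 30 was at 0 in either library. Since RNA came from whole tissue, these values alone cannot tell fewer B lineage cells from less of these RNAs per cell. In the paper's flow cytometry of gWAT, also from females under HFD, B lymphocytes tended to be fewer in AD1KO. Macrophages were significantly reduced there. How much of the RNA differences that tendency accounts for was not tested.

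**Figure D1:**
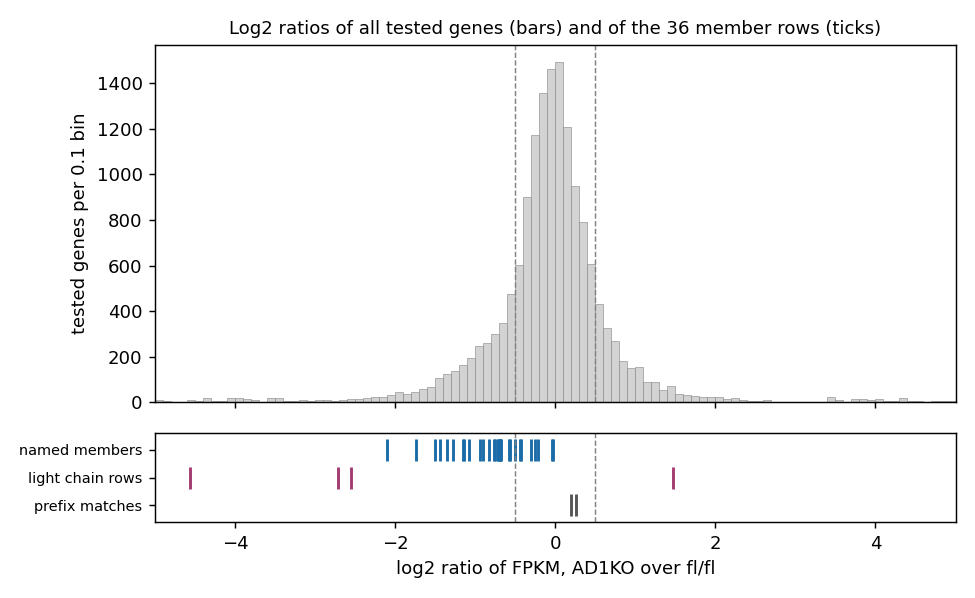
Histogram of log2 ratios (AD1KO to fl/fl FPKM) of the tested genes in bins of 0.1 (y axis, genes per bin), with the 36 rows drawn as ticks below and dashed lines at -0.5 and 0.5; ratios beyond the axis are not drawn. All 30 named genes lie left of 0, 3 light chain rows lie further left, and 1 light chain row lies at 1.47.

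The antigen receptor chains were present in both libraries and lower in AD1KO to nearly the same degree. Cd79a (mm9 chr7:25682400-25687216, plus strand) measured 47.5 FPKM in fl/fl against 29.3 in AD1KO, for a log2 ratio of -0.70 (-0.84 to -0.55). Cd79b (mm9 chr11:106172655-106176076, minus strand) measured 25.6 and 16.0, for a log2 ratio of -0.68 (-0.88 to -0.47). The level of Cd79a was therefore 1.85 times that of Cd79b in fl/fl and 1.83 times in AD1KO. Ms4a1, which encodes the B cell surface protein CD20 (mm9 chr19:11324654-11340669, minus strand), did not follow them: its counting interval overlapped neither of theirs. Its level was 5.12 FPKM in fl/fl against 5.0 in AD1KO, for a log2 ratio of -0.03 (-0.35 to 0.27) on 176 and 169 reads. The level of Cd79a was 9.28 times that of Ms4a1 in fl/fl and 5.86 times in AD1KO. The counting intervals of 15 named genes lay wholly below that of Ms4a1, and 14 overlapped it.

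Co-receptors and other surface proteins included the named genes with the lowest ratios. Cd72, an inhibitory receptor (mm9 chr4:43459334-43467500, minus strand), measured 58.3 FPKM in fl/fl against 13.6 in AD1KO, 4.29 times lower, with a log2 ratio of -2.10 (-2.28 to -1.92). Cd180 (mm9 chr13:103483638-103529709, plus strand), a Toll-like receptor relative that works with the protein encoded by Ly86, measured 42.9 and 12.8 FPKM, 3.35 times lower, for a log2 ratio of -1.74 (-1.89 to -1.60). Both are also known from macrophages or dendritic cells. Cd37, a tetraspanin of leukocytes, had the second-highest fl/fl level of the 30 genes after Jchain: 90.1 FPKM in fl/fl against 42.6 in AD1KO, for a log2 ratio of -1.08. Cd22, the inhibitory sialic acid receptor of B cells, measured 8.05 and 4.17 FPKM, for a log2 ratio of -0.95 (-1.16 to -0.74). Its relative Siglecg measured 3.27 and 2.64, for a log2 ratio of -0.31 whose interval (-0.64 to 0.02) held 0.

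Cr2, the complement receptor CD21, had the lowest level of the 30 genes in each library and measured 0.62 FPKM in fl/fl against 0.38 in AD1KO, for a log2 ratio of -0.69 (-1.33 to -0.14). Fcer2a, the low-affinity IgE receptor CD23, had a log2 ratio of the same size, -0.69 (-1.06 to -0.34), at 4.64 and 2.87 FPKM. Fcrla, an Fc receptor-like protein kept inside B cells, measured 5.12 and 3.11 FPKM, with a log2 ratio of -0.72. Cxcr5, the receptor that guides B cells into follicles, measured 3.34 FPKM in fl/fl against 3.24 in AD1KO, for a log2 ratio of -0.04 (-0.39 to 0.29), which held 0 as that of Ms4a1 did. Of genes used as markers of immature B cells, Vpreb3 measured 2.87 and 1.18 FPKM, but on only 35 reads over both libraries, and the interval of its log2 ratio, -1.28, ran from -2.53 to -0.20. Cd24a measured 16.6 and 9.35 FPKM, for a log2 ratio of -0.83, and is uncertain because near-identical pseudogene copies may share its reads. Ly6d measured 20.2 and 14.8 FPKM, for a log2 ratio of -0.44 that did not reach the limit for lower. Of the 14 genes grouped with the receptor and its co-receptors, not all of which are receptors, 11 were lower, with a median of -0.71.

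**Figure D2:**
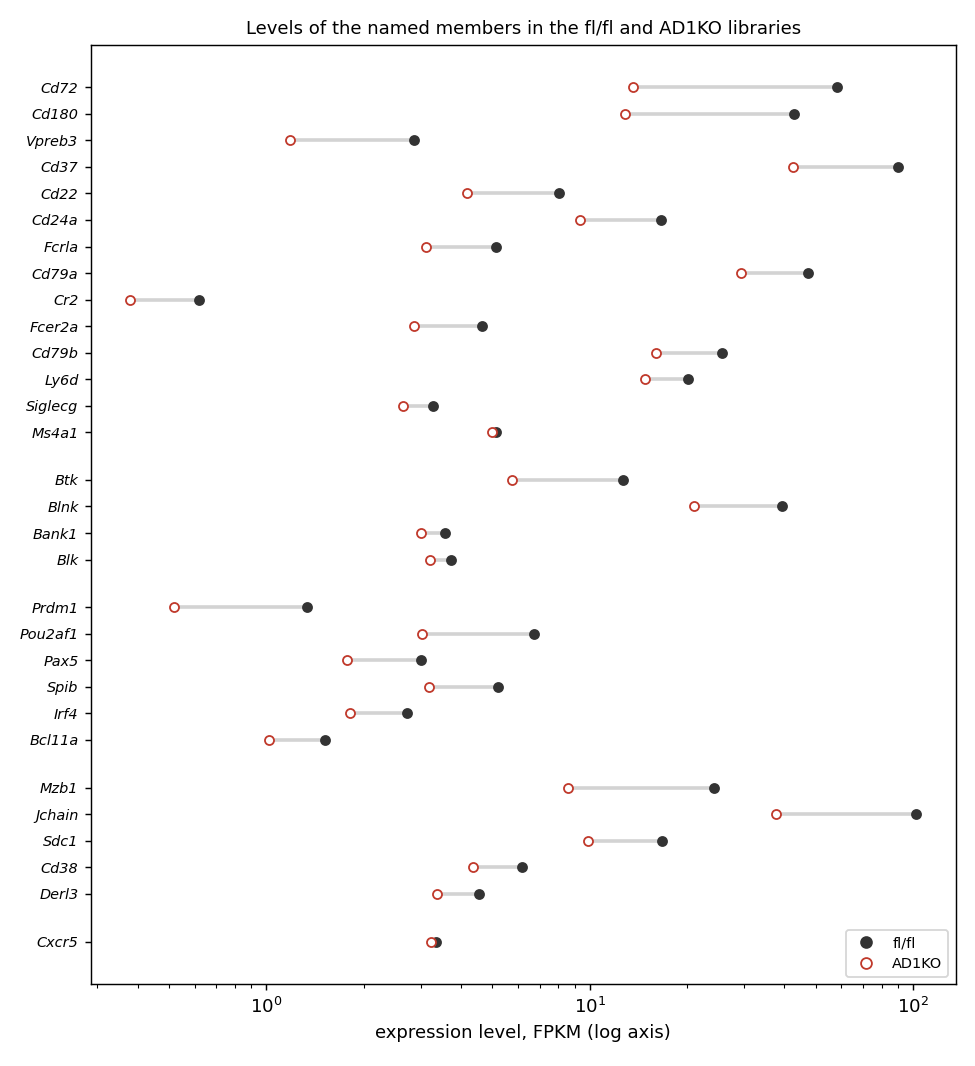
Levels of the 30 named genes in the fl/fl library (filled points) and the AD1KO library (open points), in FPKM on a log axis. Roles run from top to bottom: receptor, co-receptors and genes grouped with them, signalling, transcription regulators, plasma cell and secretion, and Cxcr5. Open points lie left of filled points throughout, far apart for Cd72 (58.3 and 13.6 FPKM) and nearly on top of each other for Ms4a1 and Cxcr5.

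Of the 4 signalling genes, Btk and Blnk were lower and Blk and Bank1 were neither, with a median of -0.58. Btk, the tyrosine kinase whose loss arrests B cell development and which myeloid cells also use, measured 12.7 FPKM in fl/fl against 5.75 in AD1KO, for a log2 ratio of -1.14 (-1.36 to -0.92). Blnk, the adaptor that links SYK to BTK, measured 39.5 and 21.1 FPKM, for a log2 ratio of -0.91 (-1.04 to -0.78). Blk, a B cell kinase of the SRC family, measured 3.73 and 3.2 FPKM, with a log2 ratio of -0.22 (-0.53 to 0.09). Bank1, a B cell scaffold protein, measured 3.57 and 3.0, with a log2 ratio of -0.25 (-0.58 to 0.07). The intervals of both latter genes held 0.

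All 6 transcription regulators were lower, with a median of -0.73, all at low levels in whole tissue. Prdm1, which encodes BLIMP-1, the regulator of plasma cell identity (mm9 chr10:44156983-44248307, minus strand), measured 1.34 FPKM in fl/fl against 0.52 in AD1KO, for a log2 ratio of -1.35 (-1.90 to -0.88). Pou2af1, the octamer coactivator needed for germinal centres (mm9 chr9:51021795-51048184, plus strand), measured 6.75 and 3.03 FPKM, for a log2 ratio of -1.15 (-1.47 to -0.86). Pax5, the regulator that holds cells in the B lineage, measured 3.0 and 1.78 FPKM, for a log2 ratio of -0.75 on 58 and 34 reads (-1.41 to -0.12). Spib, an ETS factor of B cells and plasmacytoid dendritic cells, measured 5.22 and 3.18 FPKM, for a log2 ratio of -0.71. Irf4, active in plasma cells, T cells and dendritic cells, measured 2.72 and 1.82 FPKM, and Bcl11a, of early B cells and plasmacytoid dendritic cells, measured 1.52 and 1.02. Their ratios of -0.58 and -0.57 were close to the limit, and moved to its other side under upper quartile scaling and under a pseudocount of 1 FPKM. Of 6 plasmacytoid dendritic cell markers, 3 were lower, and their summed level was 22.5 FPKM in fl/fl against 21.0 in AD1KO. Most of that sum was Tcf4, at 14.9 and 14.3 FPKM, and Cox6a2, at 5.35 and 5.34; 5 of the 6 intervals held 0, and the sixth marker, Pacsin1, had a log2 ratio of -2.07. The part of those cells in the values of Spib, Irf4 and Bcl11a was not tested.

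Genes of the plasma cell and of antibody assembly included the most abundant of the 30 in fl/fl, Jchain, while Cd37 was the most abundant in AD1KO. Jchain, the joining chain that links IgA and IgM into polymers, measured 102 FPKM in fl/fl (3606 reads) against 37.6 in AD1KO (1309 reads), 2.72 times lower, with a log2 ratio of -1.44 (-1.54 to -1.35). Mzb1, a chaperone-like protein of the endoplasmic reticulum that helps immunoglobulin assembly, measured 24.2 and 8.58 FPKM, for a log2 ratio of -1.50 (-1.80 to -1.19). The level of Jchain was 20.0 times that of Ms4a1 in fl/fl and 7.53 times in AD1KO. The interval of Jchain lay wholly below those of 21 other named genes, overlapped those of 6, and lay wholly above those of 2, Cd72 and Cd180. Sdc1, the plasma cell surface proteoglycan CD138, which epithelial and stromal cells also carry, measured 16.8 and 9.87 FPKM, for a log2 ratio of -0.76 (-0.93 to -0.61). Derl3, which acts in the disposal of misfolded proteins from the endoplasmic reticulum, measured 4.55 and 3.37 FPKM, for a log2 ratio of -0.43 (-0.87 to -0.01). Cd38, an ectoenzyme of plasma cells and many other leukocytes, measured 6.19 and 4.35 FPKM. Its ratio of -0.51 only just passed the limit, and failed it under all 5 other scalings and pseudocounts tried.

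**Figure D3:**
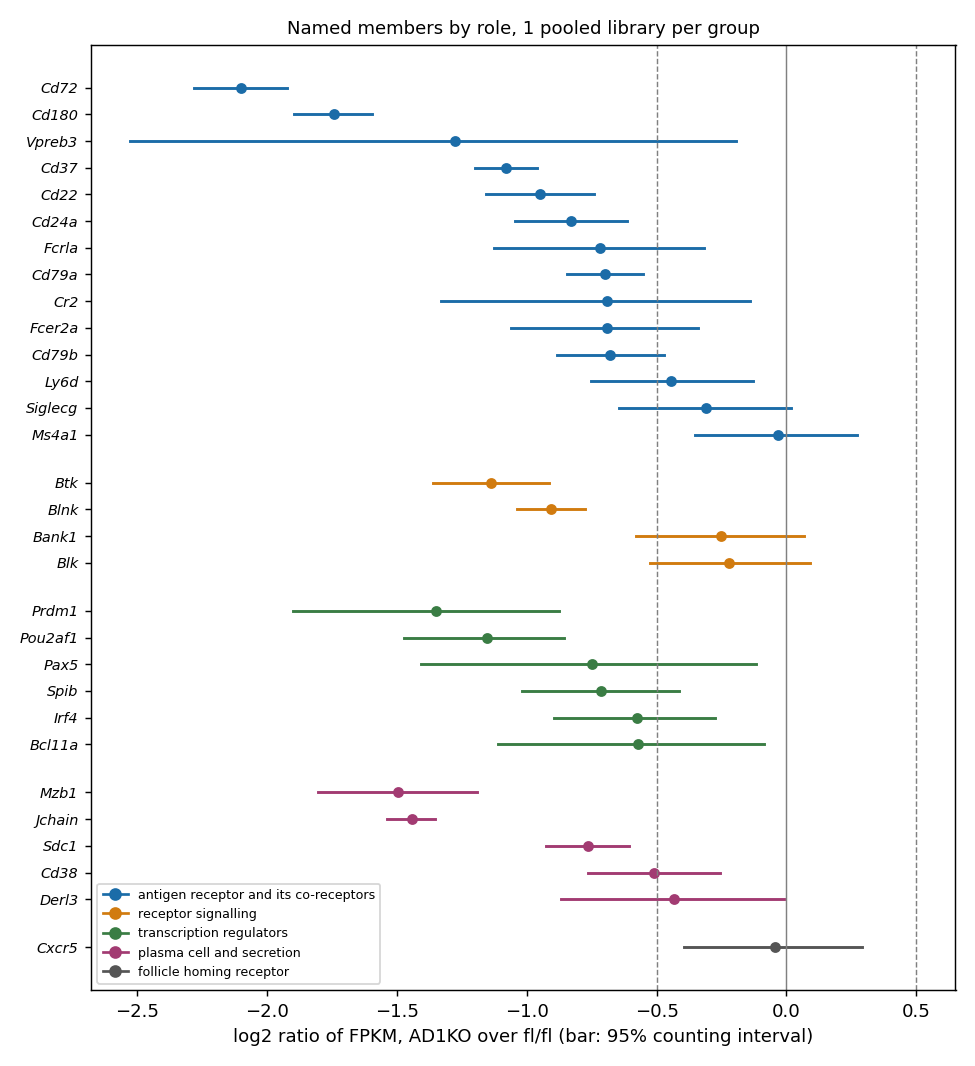
Log2 ratios (AD1KO to fl/fl FPKM) for each of the 30 named genes (points), coloured by role, with exact 95% counting intervals (bars) that hold no spread between animals; dashed lines mark -0.5 and 0.5. The intervals of Cd72, Cd180, Jchain and Mzb1 lie wholly below -1, and those of Ms4a1, Cxcr5, Siglecg, Blk and Bank1 cross 0.

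Many of the 30 genes are not confined to B cells. Of these, 12 were set apart as also known from myeloid cells, T cells or other cells. They were Cd24a, Cd38, Sdc1, Prdm1, Irf4, Btk, Cd37, Cd180, Cd72, Bcl11a, Spib and Ly6d. They held 11 of the lower calls, with a median of -0.80. The other 18 were not shown to be confined to B cells, and 12 of them were lower, with a median of -0.69. This group of 18 held all 5 genes whose interval included 0. Of the 36 rows as a whole, 26 were lower and 1 was higher. The 2 rows brought in by their first letters alone were neither: Iglon5, a neural adhesion protein, measured 1.57 and 1.88 FPKM, and Ighmbp2, a helicase, measured 0.96 and 1.1.

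Immunoglobulin transcripts were by far the most abundant of these RNAs, and their rows differed in opposite directions. The table lists them under the sequencing provider's own identifiers with no symbol, sequence or position. Of the 4 light chain rows in the rule, the 3 that share one kappa light chain description and a length of 993 bases were all lower. The most abundant, BGI_novel_G000813, measured 1634 FPKM in fl/fl against 277 in AD1KO, for a log2 ratio of -2.56 (-2.61 to -2.51). The second, BGI_novel_G000815, measured 584 and 24.7 FPKM, 23.7 times lower, for a log2 ratio of -4.57 (-4.72 to -4.42), and the last of these measured 328 and 49.8, for a log2 ratio of -2.72. The remaining row, BGI_novel_G000812, described as a light chain variable region, went the other way: it measured 187 FPKM in fl/fl against 519 in AD1KO, for a log2 ratio of 1.47 (1.41 to 1.53). It was the only higher row among the 36; over all tested genes, the whole interval lay at or above 0.5, as here, in 4.19%.

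Rows of 1 chain can share constant region sequence, and how the provider placed such reads is not given, so levels of single rows are uncertain and reads were also summed by chain. The 4 light chain rows of the rule summed to 42564 reads in fl/fl against 13956 in AD1KO, for a log2 ratio of -1.59 (-1.62 to -1.56). BGI_novel_G000813 held 59.5% of that sum in fl/fl against 30.4% in AD1KO, while BGI_novel_G000812 held 7.34% and 61.4%. Without BGI_novel_G000813 the ratio of the sum was -0.81. A further 2 light chain rows whose description names no class went in opposite directions, from 168 to 110 FPKM and from 69.9 to 167, and summed to 3632 and 4176 reads, for a log2 ratio of 0.22, and with them the light chain sum had a log2 ratio of -1.33.

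The 11 heavy chain rows, outside the rule, summed to 57224 reads in fl/fl against 33430 in AD1KO, for a log2 ratio of -0.76 (-0.78 to -0.74). That sum turned on the most abundant row, at 1339 FPKM in fl/fl against 327 in AD1KO: it held 61.0% of heavy chain reads in fl/fl against 25.2% in AD1KO. Without it the sum of the other rows was higher in AD1KO, with a log2 ratio of 0.18. Single heavy chain rows ran from a log2 ratio of -2.73 to 1.48 with a median of 0.03. Of them 5 were lower and 2 higher, beside 19.1% and 14.3% of all tested genes. The row with most reads in AD1KO measured 117 FPKM in fl/fl against 324 in AD1KO and made up 5.81% and 27.3% of heavy chain reads. Of the other lower rows, those with the largest differences went from 109 FPKM in fl/fl to 22.8 in AD1KO and from 31.0 to 4.67, and the others from 102 to 66.0 and from 104 to 68.5. The second higher row went from 84.5 to 155 FPKM. The remaining rows were neither, and went from 233 to 259, from 63.9 to 65.3, from 54.0 to 56.8 and from 3.63 to 5.07 FPKM. The first of these had a log2 ratio of 0.15 (0.10 to 0.20) and the last 0.48 (0.21 to 0.75), with both intervals above 0. Heavy chain rows at similar fl/fl levels therefore went in different directions.

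The 7 lambda chain rows were scarcer, at 2333 and 1051 reads, for a log2 ratio of -1.13 (-1.24 to -1.03), or -0.66 without the row of most signal. Of them 4 were lower and 2 higher, beside 19.1% and 14.3% of all tested genes. The lower lambda rows went from 66.4 to 11.9, from 34.3 to 10.9, from 29.8 to 16.99 and from 7.18 to 1.65 FPKM. The higher ones went from 0.98 to 6.32 and from 5.73 to 8.71 FPKM, and the last from 29.0 to 23.6.

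All 24 immunoglobulin rows together made up 0.594% of the fl/fl reads and 0.3% of the AD1KO reads, for a log2 ratio of -0.99. Of these rows 13 were lower and 6 higher, beside 19.1% lower and 14.3% higher among all tested genes. Heavy chain reads were 1.24 times the light chain reads (without lambda) in fl/fl and 1.84 times in AD1KO. The row with most reads differed between the libraries in every class of chain. With 1 pool per genotype, whether such a shift was shared by the 4 animals or came from 1 of them cannot be told.

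**Figure D4:**
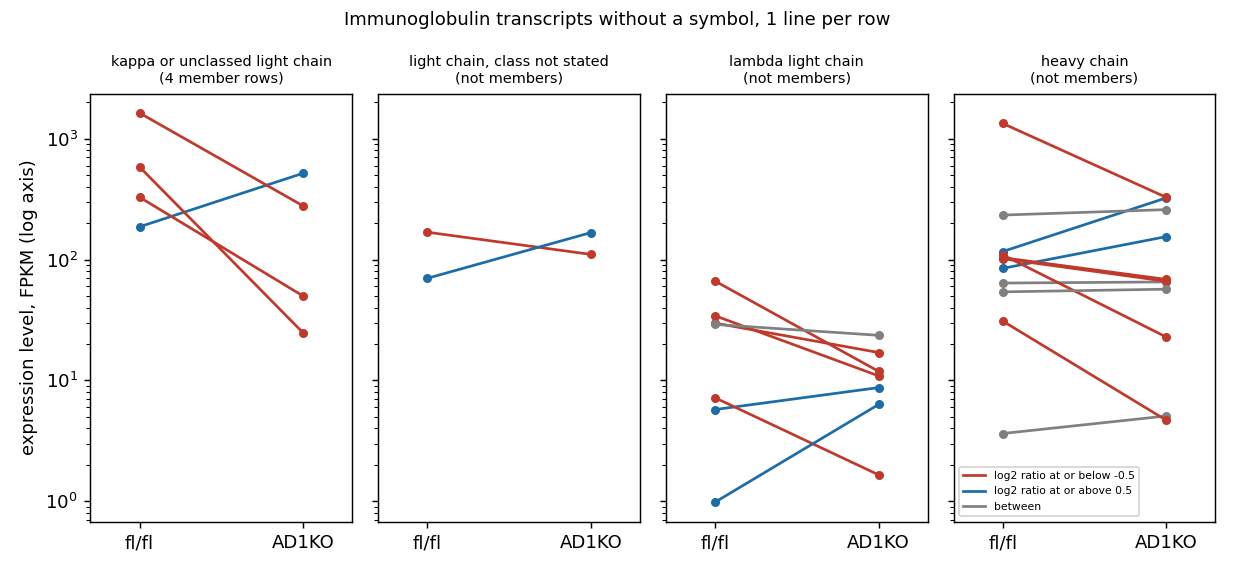
Levels in FPKM (log axis) of the 24 immunoglobulin rows without a symbol, each a line from the fl/fl to the AD1KO library, in panels by chain, with lower rows in red, higher rows in blue and the rest in grey. Lines cross in every panel: 3 of the 4 light chain rows of the rule are lower and 1 is higher, and the leading heavy chain row drops from 1339 to 327 FPKM.

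Other genes of the same pathways were examined by lists, whose counts stand beside 19.1% lower and 14.3% higher among all tested genes. Of 16 other B cell surface and antigen presentation genes, 12 were lower and none higher, with a median of -0.95. The lowest ratio in the list was that of Cd5, a surface protein of T cells and B-1 cells, at 5.06 and 1.08 FPKM. The most abundant was Cd74, the MHC class II invariant chain of all antigen-presenting cells, at 4662 and 1627 FPKM, for a log2 ratio of -1.52. The highest ratio was that of Cd81, a widely expressed tetraspanin, at 270 and 367 FPKM, for a log2 ratio of 0.44.

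Of 21 other antigen receptor signalling genes, 16 were lower and none higher, with a median of -0.93. Ptpn6, the phosphatase SHP-1 recruited by CD22 and CD72, had the lowest ratio, at 59.5 FPKM in fl/fl against 20.2 in AD1KO (-1.56). The most abundant over both libraries, the adaptor Grb2, measured 64.1 and 40.8 FPKM, for a log2 ratio of -0.65. The calcium channel Itpr1 had the highest ratio, 0.31, at 3.43 and 4.24. Most of this list is used by all leukocytes. The 15 other transcription regulators were divided, with 6 lower, 2 higher and a median of -0.20. Irf8, of B cells and myeloid cells, measured 56.6 and 23.8 FPKM (-1.25), Spi1, which encodes PU.1, measured 129 and 60.2 (-1.10), and Foxo1, also active in adipocytes, measured 11.6 and 17.4 (0.58).

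Receptors and ligands of B cell survival showed 6 of 9 genes lower and none higher, with a median of -0.64. The counting intervals of 4 of the 9 held 0, and 1 of the lower calls rested on 12 and 8 reads. Il21r, the receptor of a helper T cell cytokine, measured 5.07 FPKM in fl/fl against 1.6 in AD1KO (-1.66), and Il4ra, the most abundant, measured 19.2 and 11.0 (-0.81). Tnfrsf17, the plasma cell survival receptor BCMA, had the highest ratio of genes reaching 1 FPKM, -0.22, with an interval from -1.11 to 0.65. Of 8 germinal centre genes, 7 were lower and none higher, with a median of -1.14, but the most abundant, the cytidine deaminase Apobec1, at 110 and 48.8 FPKM (-1.17), is not particular to B cells. Ung, which repairs deaminated DNA, measured 3.34 and 3.38 FPKM (0.02). Of 12 homing and follicle stroma genes, 7 were lower and 1 higher, with a median of -0.75. Lymphotoxin genes were among the lower ones: Lta measured 1.08 and 0.22 FPKM (-2.24, from 25 and 5 reads) and Ltb measured 24.5 and 11.8 (-1.06), whereas Chst4, a sulfotransferase of high endothelial venules, measured 0.87 and 1.45 (0.73).

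Unlike Jchain and Mzb1, most genes of the general secretory machinery were neither lower nor higher. Of 14 such genes, 2 were lower (14.3%, beside 19.1% of all tested genes) and none higher, with a median of -0.17. Creld2, a secretory stress gene, was lower at 34.1 FPKM in fl/fl against 19.0 in AD1KO (-0.84), the chaperone Hsp90b1 was the most abundant at 211 and 156 (-0.44), and Edem1 had the highest ratio at 26.3 and 29.2 (0.15). These genes serve every secreting cell of the tissue. Of 6 genes that bind or carry antibodies, 4 were lower, none was higher, and the median was -1.40. Fcgr4, an activating Fc gamma receptor of myeloid cells, measured 140 and 15.1 FPKM, 9.26 times lower, for a log2 ratio of -3.21 (-3.39 to -3.04), and its signalling partner Fcer1g measured 862 and 325 (-1.41). Pigr, which carries polymeric IgA across epithelia, measured 0.82 and 1.01 (0.30).

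**Figure D5:**
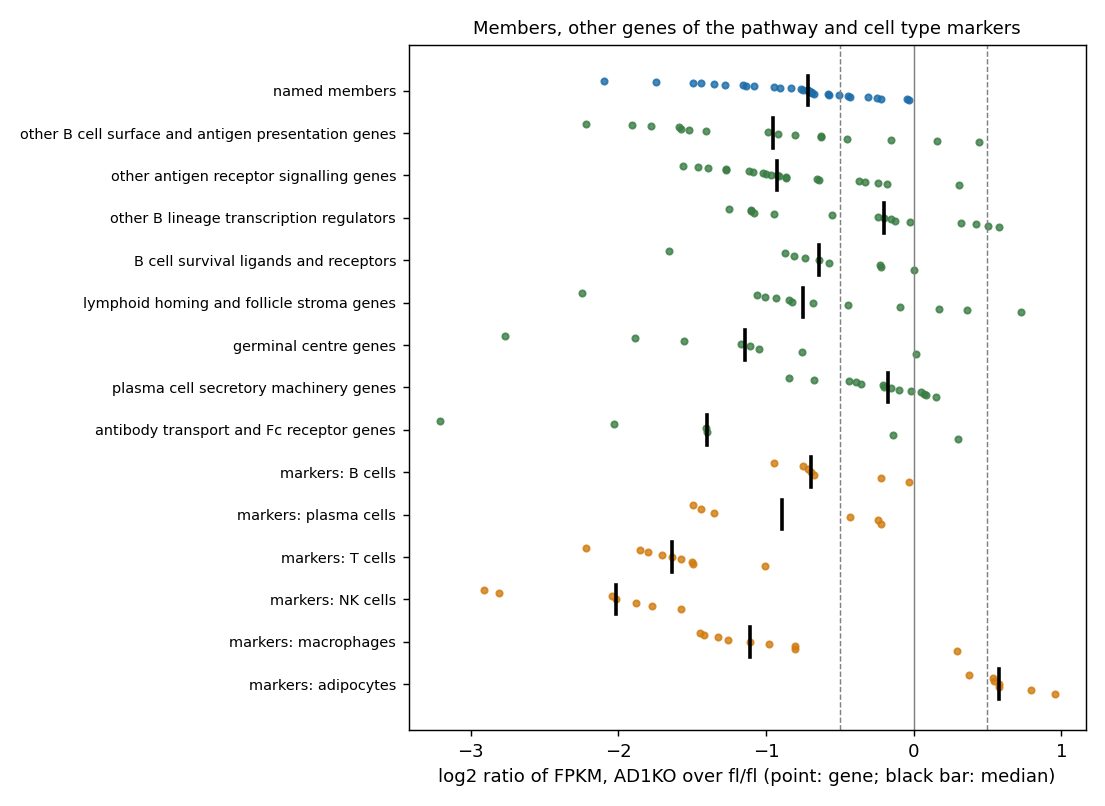
Log2 ratios (AD1KO to fl/fl FPKM) for the 30 named genes (blue), other genes of the pathway by list (green) and cell type markers (orange), with a point per gene, a black bar at each median, and dashed lines at -0.5 and 0.5. Medians lie at -0.72 for the named genes, -1.64 and -2.02 for T and NK cell markers, -1.11 for macrophage markers and 0.58 for adipocyte markers.

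Markers of other cells moved as well, and their part in the B lineage values was not tested. All 9 T cell markers were lower, with a median of -1.64 and a summed level of 98.9 FPKM in fl/fl against 33.8 in AD1KO. All 7 NK cell markers were lower (median -2.02, summed 51.5 and 12.8 FPKM), as were 8 of 9 macrophage markers (median -1.11, summed 6130 and 2700). Of 6 conventional dendritic cell markers, 4 were lower and 1 higher (median -1.15, summed 26.3 and 14.1). The higher one was Cd209a, at 2.23 and 3.59 FPKM (log2 ratio 0.68), and Zbtb46 was neither. Unlike these lists, adipocyte markers were mostly higher, at 6 of 7, with a median of 0.58 and a summed level of 5010 and 8560 FPKM. Against these, 5 of the 7 B cell markers (Ms4a1, Cd79a, Cd79b, Pax5, Blk, Fcrla and Cd22) were lower, with a median of -0.70. The 7 summed to 98.2 FPKM in fl/fl against 62.6 in AD1KO. The 6 plasma cell markers summed to 207 and 113, with a median of -0.89. Mzb1, Jchain and Prdm1 were the 3 lower ones, and Derl3, Xbp1 and Tnfrsf17 were neither. Much of that sum was Jchain and Xbp1, the latter at 72.4 and 61.2 FPKM, for a log2 ratio of -0.24. Of 4 markers of peritoneal B-1 cells, 2 were lower, Cd5 and Spn, both of which T cells also express. Lymph node tissue in the samples would carry stroma and venule genes: of 5 such genes, which summed to 45.2 and 32.0 FPKM, 1 was lower and 1 higher. Ccl19 was lower, at 16.25 FPKM in fl/fl against 6.91 in AD1KO, for a log2 ratio of -1.23 (-1.64 to -0.82). Chst4 was higher, at 0.87 and 1.45 FPKM. Glycam1 measured 13.5 and 9.91, Cxcl13 measured 14.4 and 13.5, and Madcam1, which marks mucosal venules, measured 0.13 and 0.17. No marker in any of these lists was at 0 in either library.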

How the data were processed

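RNA-Seq of female gWAT under HFD was used (fl/fl and AD1KO), with RNA of 4 animals pooled into 1 library per group. RRBS libraries of the same series were left out as not analysed here. Per the paper's methods, clean reads had been aligned to mouse mm9. The submitters' processing notes name mm9 and mm10, and the aligner and the quantification program are not given in the sources used here. The authors deposited 1 table with expression of both libraries, whose values behave as FPKM with 0 written as 0.01. Its columns of fold change, P-value and FDR from the authors' own comparison were not used.

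Values of 0.01 were set back to 0. Log2 ratios (AD1KO to fl/fl) were taken with 0.01 FPKM added to each value, the 15839 genes reaching 0.1 FPKM in either library were kept, and a ratio of 0.5 either way was called, with no P-value. Reads were recovered from whole-read steps of low FPKM values, with fitted depths of 17660000 (fl/fl) and 17440000 (AD1KO) reads and a length correction of 116 bases. Of 749 and 755 genes below 8 reads, 82.2% and 82.0% fell within 0.15 of a whole read. Counting intervals are exact Clopper-Pearson intervals (95%) on the split of the reads, without molecular identifiers. The method was tested on simulated data that held counting error alone, with no spread between animals. The folds planted there were larger than the median difference of the named genes, so recovery of smaller ones was not tested. Gene positions (mm9) came from the GENCODE annotation, for 28 of the 30 named genes. Of 882 rows without a symbol, 24 were taken as immunoglobulin chains from their protein match or orthology description.

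All 30 genes were named. Immunoglobulin rows were named from 5 FPKM up, and in each pathway list the gene of highest level and those of lowest and highest ratio among genes with at least 1 FPKM. The genes, lists and limits were chosen with earlier results of these data known, so that they give no independent support. A gene of the planned lists is not reported here. Other scalings, pseudocounts, filters and thresholds were tried. Tables were handled with pandas 2.3.3 under Python 3.11.15, intervals computed with SciPy 1.17.1 and NumPy 2.4.6, and plots drawn with Matplotlib 3.10.9.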

Additional observations from a re-analysis of the deposited data

How the results depend on the processing

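Of the 36 rows, 26 were lower. This became 12 at a log2 ratio of 1 and 16 where the whole counting interval had to pass -0.5. Without the 12 genes set apart as also known from other cells, it became 15. The median of the named genes stayed between -0.72 and -0.60 under every alternative tried. The light chain sum of -1.59 was -1.54 under the trimmed mean of M-values, -1.50 under upper quartile scaling, -1.55 under the median of ratios and -0.81 without its row of most signal. The heavy chain sum of -0.76 was -0.71, -0.67 and -0.71 under the same scalings, and reversed to 0.18 without its row of most signal. The lambda sum of -1.13 was -0.66 without its row of most signal. In alternatives chosen after seeing the data, summed FPKM gave -1.65 for light and -0.73 for heavy chains, and adding the light chain rows of no stated class gave -1.33; leaving out Iglon5 and Ighmbp2 left 26 rows lower. Of 180 values of single rows under other scalings and pseudocounts, 177 moved by less than their counting error and none changed the direction of a call; Cd38, Irf4, Bcl11a and Cr2 crossed the limit in at least 1. The number of named genes with a ratio under 0 was 28, 28 and 29 under the 3 scalings, which shifted all ratios by up to 0.09; calls over all genes were 57.2% lower as deposited and 48.0% under upper quartile scaling. No paired analysis was possible because each genotype has a single pooled library, and for the same reason no library could be left out. Depth limits Vpreb3 (35 reads) and Pax5 (92 reads) most.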
